A study of Rattus norvegicus with 12 samples.

Results

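Claudins are the membrane proteins that form the strands of tight junctions, and Cldn14 encodes one of them, claudin-14. Its level was compared with those of Cldn1, Cldn3, Cldn4, Cldn5, Cldn6, Cldn7, Cldn9, Cldn10 and Cldn11 in fetal rat pituitaries, to ask whether it moved alone among them. The genes were found by their symbol among the probes of the array. Each of the 10 was represented by 1 probe, out of 30367 probes in all, and each probe was well above background on all 12 arrays. They were chosen because the exposure difference of Cldn14 was already known. Exposure differences are therefore given below as values with intervals and without p-values, and the sex comparison is tested. In all, 22 genes with a claudin symbol were on the array. Besides these 10, only Cldn2, Cldn12, Cldn19 and Cldn23 passed the filter on dim probes, and Cldn8, Cldn15, Cldn16, Cldn17, Cldn18, Cldn20, Cldn22 and Cldn24 did not. After that filter 19382 genes were compared.

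The arrays hold total RNA from pituitaries of Wistar rat fetuses at gestational day 18, in 4 groups of 3 arrays: TCDD-exposed males, control males, TCDD-exposed females and control females. TCDD is 2,3,7,8-tetrachlorodibenzo-p-dioxin, which binds the aryl hydrocarbon receptor. Its dose and the day of exposure are not given in the sources used here, nor are the number of pituitaries per array and the litters they came from. Tests and intervals therefore measure the spread between these samples, which may be partly technical. All groups share strain, age and tissue, and what the controls received is not given. Pituitary hormone cells were present on every array, the mean of 14 of their markers lying between -1.30 and 0.31, with Pomc and Cga the brightest. Exposure was visible in Ahrr, the gene of the receptor's own repressor. It averaged 0.24 ± 0.34 in TCDD males against -5.73 ± 0.51 in control males, and 0.23 ± 0.45 in TCDD females against -5.63 ± 0.59 in control females (SD, n = 3 each). Adjusted p was 0.000151 in males and 0.000185 in females by limma. Cyp1a1, the classical target enzyme of the receptor, was well above background on all 6 TCDD arrays and on none of the 6 control arrays. Levels are log2 intensity minus the array's 75th percentile, so that 0 is the 75th percentile and a step of 1 is 2-fold. Levels of different probes are not compared, because probes differ in brightness at equal RNA.

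Markers of another tissue, the sensory ganglion, were high on some arrays and moved in part with exposure. The mean of 24 markers of sensory ganglion neurons, whose brightest were Stmn2 and Nefm, was 0.16 to 1.46 on 6 arrays, against -2.92 to -2.49 on the remaining arrays. Those with the signal were TCDD males 1 and 2, control male 2, TCDD females 1 and 3, and control female 2, so 4 were exposed and 2 were controls. Over both sexes 23 of the 24 markers were above 0, with a median difference of 1.26. The 12 arrays lay on 3 slides, which held the groups unequally, slide 1 only males and slide 3 only females. Leaving out the 6 arrays with the signal leaves 1 exposed and 2 control arrays in each sex, and slide 1 holds 1 exposed male and slide 3 holds 1 control female, so values without these arrays or within a slide rest on 1 array on one side.

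Claudins of neighbouring cells bind each other across the gap between cells. The set of claudins that a cell makes decides which ions and molecules pass, some members sealing the gap and others forming pores. Cldn14 is known for the inner ear and the kidney, where it limits the passage of cations. In rodents Cldn3, Cldn4 and Cldn7 belong to simple epithelia, Cldn1 to skin and other tight epithelia, Cldn6 and Cldn9 largely to embryonic epithelia and the inner ear, and Cldn10 to ion-transporting epithelia. Cldn5 seals blood vessel endothelium, and Cldn11 makes the tight junctions of myelin, of Sertoli cells and of the arachnoid layer. The pituitary's anterior and intermediate lobes arise from an epithelial pouch of the oral ectoderm. Hormone cells, progenitor cells, vessels, posterior lobe and any adhering tissue are all present in one RNA sample, so that fewer cells of a type and less RNA per cell cannot be told apart.

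Promoter windows were read because TCDD acts through a receptor that binds DNA, and they are given for Cldn14, for Cldn11, which held the most matches among the members, and for Ahrr. The windows run from 250 bases before to 50 after 1 annotated start of each gene (RefSeq, GRCr8). The letters searched were GCGTG, the core of the receptor's site, on both strands, so that CACGC on the printed strand also counts. Matches are in capitals. RefSeq lists several Cldn14 transcripts, and this window covers 1 start only. The Cldn14 window is chr11:46711689-46711988 on the minus strand, that of Cldn11 is chr2:114149490-114149789 on the minus strand, and that of Ahrr is chr1:30821969-30822268 on the plus strand.
Cldn14: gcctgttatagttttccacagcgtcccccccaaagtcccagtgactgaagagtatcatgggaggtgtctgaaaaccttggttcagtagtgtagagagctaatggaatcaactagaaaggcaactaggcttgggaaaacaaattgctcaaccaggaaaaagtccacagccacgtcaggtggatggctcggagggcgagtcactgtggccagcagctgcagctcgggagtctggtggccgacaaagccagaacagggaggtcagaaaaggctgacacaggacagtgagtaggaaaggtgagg
Cldn11: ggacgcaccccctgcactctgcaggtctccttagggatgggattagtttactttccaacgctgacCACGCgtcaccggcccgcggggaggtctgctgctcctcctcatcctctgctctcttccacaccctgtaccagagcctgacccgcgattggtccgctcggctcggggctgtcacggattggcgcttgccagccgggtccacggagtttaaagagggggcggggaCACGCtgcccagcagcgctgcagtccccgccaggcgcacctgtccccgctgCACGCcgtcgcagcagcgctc
Ahrr: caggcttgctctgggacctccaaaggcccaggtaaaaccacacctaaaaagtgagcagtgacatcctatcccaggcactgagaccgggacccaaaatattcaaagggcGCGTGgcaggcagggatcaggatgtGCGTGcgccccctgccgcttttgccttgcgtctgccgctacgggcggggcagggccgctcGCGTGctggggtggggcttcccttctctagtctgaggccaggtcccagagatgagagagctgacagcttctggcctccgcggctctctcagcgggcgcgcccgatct
The Cldn14 window held no match, the Cldn11 window held 3 and the Ahrr window held 3. Of the 10 claudins, 8 have an entry. Single matches stood in the windows of Cldn1, Cldn3, Cldn6, Cldn7 and Cldn10, and that of Cldn5 had none. The share with a match, 6 of 8, compares with 29.7% of 33469 RefSeq promoters, which were not matched for GC content. GC content was 37.0% in the Cldn10 window and 58.0% to 67.0% in the other claudin windows with a match. It was 52.7% in the Cldn14 window and 57.7% in that of Cldn5. The longer form TNGCGTG, which contains the core, was in 4.89% of promoters, in 1 place of the Ahrr window and in none of the 8 claudin windows. A match is a description of letters, and a window without one says nothing about the receptor elsewhere in the gene.

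Cldn14 was higher on exposed arrays of both sexes, by 5.37-fold in males and 1.63-fold in females. The probe is A_64_P057196 for NM_001013429, on rn4 chromosome 11 from 34142195 to 34142254 on the minus strand. It begins at base 1299 of the transcript, and the files do not say whether this is coding. Background-corrected intensities were 85.3, 80.2 and 108 in TCDD males, against 10.9, 25.2 and 14.8 in control males. They were 51.7, 28.0 and 45.3 in TCDD females, against 19.4, 27.3 and 22.8 in control females. Every exposed array was thus brighter than every control array, although the dimmest exposed female array, at 28.0, and the brightest control female array, at 27.3, nearly met. The gene is dim: the lowest intensity that counted as well above background was between 9.47 and 13.4 on these arrays.

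On the scaled log2 level the picture was the same. TCDD males had levels of -3.72, -3.71 and -3.25, against -6.43, -5.22 and -6.31 in control males. TCDD females had -4.41, -5.08 and -4.79, against -5.65, -5.38 and -5.35 in control females. The groups did not overlap in either sex, and all 6 exposed arrays lay above all 6 control arrays, as was the case for 0.201% of the 19382 genes. Such a separation is a description here, since the gene was chosen by its exposure difference. The lowest levels were those of control males 1 and 3, at -6.43 and -6.31, where the lowest level well above background on the same arrays was -6.71 and -6.74.

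The difference in males was 2.42 on the log2 scale, or 5.37-fold (standard error 0.32, 95% interval 1.72 to 3.13, n = 3 each). In females it was 0.70, or 1.63-fold (standard error 0.32, interval 0.00 to 1.40, n = 3 each), so that the lower bound reached 0. Over both sexes it was 1.56, or 2.95-fold (standard error 0.22, interval 1.07 to 2.06, n = 6 each). Among all genes these differences lay at the 99.9th percentile in males, the 98.3rd in females and the 99.7th over both. Those places are a description only, since the gene was chosen by its exposure difference. The males' difference exceeded the females' by 1.72 (standard error 0.45, interval 0.73 to 2.72), as a value without a test, since the exposure contrast chose the gene. In the same fit 0 genes were called for a difference of the exposure effect between the sexes, and 867 had an unadjusted p below 0.05. Exposed males also spread less, with an SD of 0.27, than control males, with an SD of 0.67. The latter comes from the gap between control male 2, an array with ganglion signal, and control males 1 and 3.

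**Figure D1:**
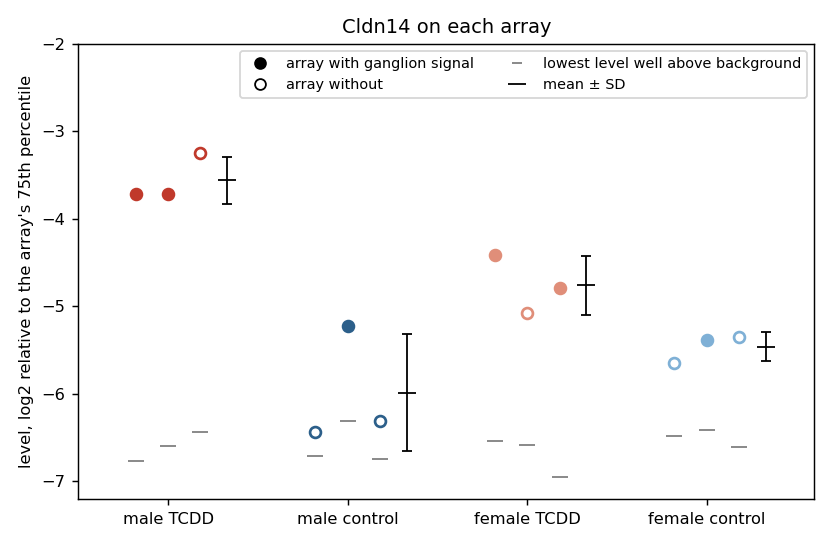
Cldn14 level on each of the 12 arrays, as log2 relative to the 75th percentile of the array, by group, with the mean and SD of 3 arrays beside the points and a short grey line at the lowest well-above-background level of each array. The 6 exposed arrays (-5.08 to -3.25) lie above the 6 control arrays (-6.43 to -5.22), and filled points mark arrays on which sensory ganglion markers were high.

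The size depended on the background correction. With normexp correction, which adds an offset of 50 to every signal, the difference was 0.92 in males, 0.23 in females, and 0.57 when the sexes were averaged. Leaving out 1 array at a time gave 2.20 to 2.81 in males and 0.53 to 0.86 in females.

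Among arrays with high sensory ganglion markers, Cldn14 lay between -4.79 and -3.71 on exposed arrays and between -5.38 and -5.22 on control arrays. Among arrays without the signal, Cldn14 lay between -5.08 and -3.25 on exposed arrays and between -6.43 and -5.35 on controls. The exposed arrays were higher within both sets, and TCDD male 3, which carried no ganglion signal, had the highest level of all. In control males the array with the signal was the highest, at -5.22 against -6.43 and -6.31. TCDD females with it lay at -4.41 and -4.79 against -5.08. TCDD males with it were lower, at -3.72 and -3.71 against -3.25. Control female 2, with it, lay at -5.38, between -5.65 and -5.35. The part of ganglion tissue in these levels was not tested. Without the 6 arrays the difference was 3.12 in males and 0.42 in females (1 exposed and 2 control arrays each), and with the ganglion mean as a covariate it was 2.30 and 0.63. Within slide 1, TCDD male 1 lay 2.26 above the 3 control males, and within slide 3 the 3 TCDD females lay 0.59 above control female 3.

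Over both sexes the differences of the other 9 claudins were all below 0, although those of Cldn3, Cldn6, Cldn9 and Cldn10 were above 0 in 1 to 4 of 27 alternative processings. They lay between -0.61 and -0.06 with a median of -0.21, where the median of all genes was -0.0229 and 44.2% of genes were above 0. In males, where 48.6% of all genes were above 0, 3 of the 9 were (median -0.01, range -0.50 to 0.19), and in females, where 40.8% were, 0 of the 9 (median -0.37, range -0.73 to -0.01). The all-gene medians were -0.00956 in males and -0.0351 in females. The limma fit called 0 of the 10 claudins in males, where 0.0103% of genes were called, 0 in females, where 0.0103% were, and 0 over both sexes, where 0.0206% were. At an unadjusted p below 0.05 there were 1811 genes in males, 520 in females and 1252 over both. Nothing is read from the counts of called claudins, since the exposure contrast chose them. The mean of the 9 was -1.05 ± 0.27 in TCDD males against -0.91 ± 0.18 in control males, and -1.20 ± 0.09 in TCDD females against -0.85 ± 0.24 in control females (SD, n = 3 each). Set against that mean on its own array, Cldn14 lay at -2.59 to -2.44 in TCDD males and -5.71 to -4.15 in control males. It lay at -3.90 to -3.10 in TCDD females and -5.07 to -4.35 in control females. The groups stayed apart in both sexes on this scale too. That adds no separate support, since the gene was chosen by its exposure difference and the mean of the 9 was lower with TCDD.

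**Figure D2:**
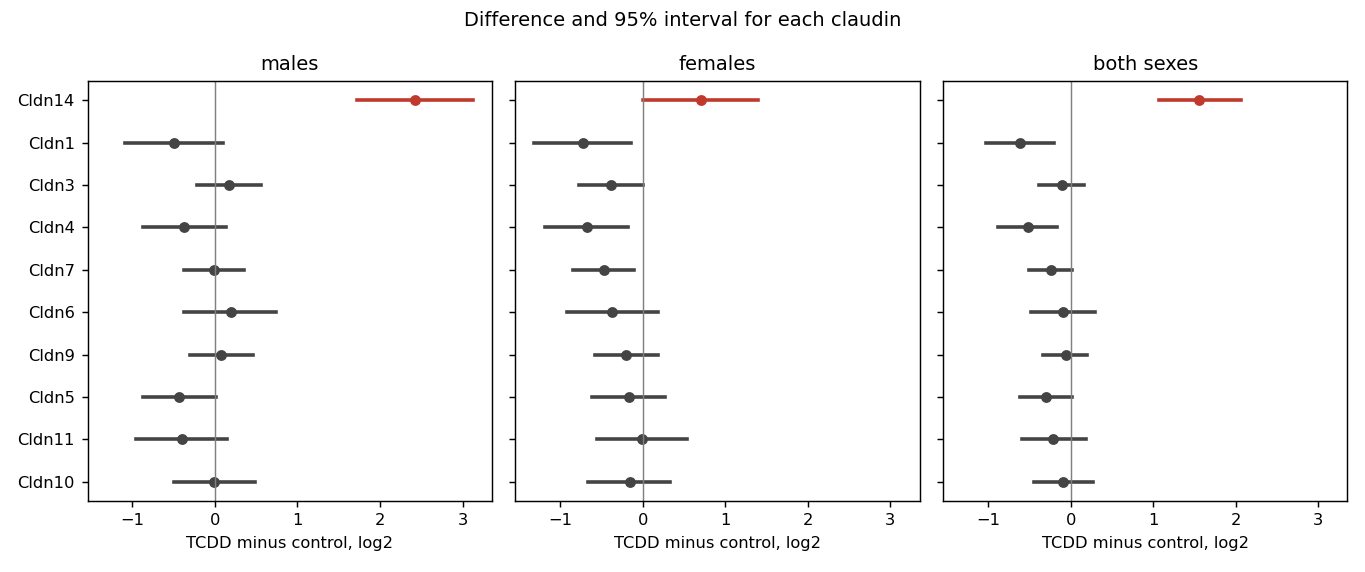
Difference of TCDD minus control on the log2 scale for each of 10 claudins in males, females and both sexes, as a point with its 95% interval. Cldn14 stands at 2.42, 0.70 and 1.56, and over both sexes the points of the other 9 lie between -0.61 and -0.06.

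Cldn1, a sealing claudin best known from the skin barrier, had the lowest difference of the 10. Its probe (rn4 chromosome 11 from 76488733 to 76488792, plus strand) was printed 10 times on each array, so its level rests on more spots than the others. Levels were -3.09, -3.48 and -3.42 in TCDD males, against -2.17, -3.28 and -3.06 in control males. They were -3.47, -3.91 and -3.53 in TCDD females, against -2.85, -2.72 and -3.14 in control females. The female groups did not overlap, and in males only TCDD male 1 was above a control, control male 2. The difference was -0.61 over both sexes, or 1.53-fold lower (standard error 0.19, interval -1.03 to -0.20, n = 6 each). In males it was -0.50, and without control male 1 it was -0.16.

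Cldn4, which tightens epithelia and is found in simple epithelia and glands, came next with -0.52, or 1.44-fold lower (standard error 0.16, interval -0.88 to -0.17, n = 6 each). Levels were -1.09, -0.56 and -0.28 in TCDD males, against -0.24, -0.27 and -0.31 in control males. They were -0.88, -0.70 and -0.73 in TCDD females, against 0.42, -0.33 and -0.36 in control females. The female groups did not overlap. In males TCDD arrays 1 and 2 lay below the controls while TCDD array 3 lay among them. The male difference was -0.37 with all arrays, -0.81 within slide 1 and 0.00 without the arrays with ganglion signal. The female difference was -0.68 with all arrays, -0.41 within slide 3 and -0.43 without control female 1.

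The other claudins of simple epithelia, Cldn3 and Cldn7, had differences below 0 in females and near 0 in males. Cldn3 had levels of 1.34, 1.52 and 1.35 in TCDD females, against 2.24, 1.60 and 1.54 in control females. The exposed females lay just below the controls, the difference being -0.39 (standard error 0.17, interval -0.77 to 0.00), with control female 1 far above the other arrays. Without control female 1 the difference was -0.16, and within slide 3 it was -0.13. In males Cldn3 lay between 1.53 and 1.93 with TCDD and between 1.45 and 1.68 in controls, a difference of 0.17 (interval -0.22 to 0.56). Cldn7, whose probe spans an intron on rn4 chromosome 10 from 56812476 to 56812646, had -0.42, -0.30 and -0.27 in TCDD females, against 0.46, 0.09 and -0.11 in control females. Its difference was -0.47 in females (interval -0.84 to -0.11) and -0.01 in males (interval -0.37 to 0.35, n = 3 each), where it was 0.21 without the arrays with ganglion signal. Without control female 1 the female difference was -0.31, and within slide 3 it was -0.21. The males' difference minus the females' was 0.55 for Cldn3 (standard error 0.25) and 0.46 for Cldn7 (standard error 0.23), as values without a test.

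In females, then, Cldn1, Cldn3, Cldn4 and Cldn7 were lower on every exposed array than on any control, which was so for 5.51% of all genes. In males none of the 9 was separated in either direction, where 14.4% of all genes were. Cldn14 was the 1 claudin of the 10 that was higher without overlap, in females as were 1.45% of genes and in males as were 8.39%. For Cldn14 this is a description, since its exposure difference chose it. Markers of several cell types were lower in the same females, while 22 of the 24 sensory ganglion markers and 9 of the 14 endothelial markers were above 0. For simple epithelium the mean of 11 markers, whose brightest were Krt18 and St14, lay at -0.78 to -0.58 in TCDD females and -0.58 to 0.00 in control females. The mean of 10 markers of pituitary progenitors, with Sox2 and Pitx1 the brightest, lay at -1.29 to -1.12 in TCDD females and -0.96 to -0.36 in control females. The mean of 7 markers of stratified epithelium, led by Tp63 and Perp, lay at -3.15 to -2.81 in TCDD females and -2.40 to -2.36 in control females, and that of the 14 hormone cell markers at -0.63 to -0.49 in TCDD females and -0.32 to 0.31 in control females. Control female 1 was the highest control for simple epithelium, progenitors and hormone cells, at 0.00, -0.36 and 0.31. The other control females lay at -0.58 and -0.38, at -0.96 and -0.90, and at -0.12 and -0.32. For simple epithelium the female groups met at -0.58. In males the mean of simple epithelium lay at -0.70 to -0.18 with TCDD and -0.64 to -0.33 in controls. The progenitor mean lay at -1.65 to -0.61 in TCDD males and -0.96 to -0.77 in control males. Hormone cell markers were lower in TCDD males too, with a mean of -1.30 to -0.07 against -0.06 to 0.27 in control males. The stratified epithelium mean lay at -2.75 to -2.15 in TCDD males and -3.14 to -2.69 in control males. The part of these cells in the claudin differences was not tested.

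Cldn5, the claudin of endothelium, differed by -0.43 in males (interval -0.87 to 0.01) and by -0.17 in females (interval -0.61 to 0.27). The level averaged 0.46 ± 0.34 in TCDD males against 0.89 ± 0.24 in control males (SD, n = 3 each), with TCDD male 3 inside the control range. The endothelial markers, led by Plvap and Kdr, gave a median difference of -0.25 in males, with 0 of 14 above 0, and 0.12 in females, with 9 of 14 above 0. Over the 12 arrays Cldn5 and the endothelial mean had r = 0.61, and 0.30 without the 2 most extreme arrays. That r was 0.40 among arrays with ganglion signal and -0.48 among the others. Cldn11 differed by -0.40 in males (interval -0.95 to 0.15), where TCDD male 1 at -0.77 was the lowest of 12 arrays, and by -0.01 in females (interval -0.56 to 0.53). Within slide 1, where TCDD male 1 is the exposed array, the male differences were -0.76 for Cldn5 and -0.91 for Cldn11, and without the arrays with ganglion signal they were -0.21 and 0.06. Against the ganglion marker mean Cldn5 had r = -0.89 among the 6 arrays with the signal and 0.62 among the other 6, given as a description.

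For the remaining claudins the intervals included 0 in both sexes. Cldn6 had a difference of -0.09 over both sexes (interval -0.48 to 0.30), Cldn9 of -0.06 (interval -0.33 to 0.20) and Cldn10 of -0.09 (interval -0.44 to 0.27). Cldn6 and Cldn9 are neighbours, with probes at 12946280 to 12946339 and 12947838 to 12947897 of rn4 chromosome 10. Differences inside these intervals were not detectable with these arrays, which is not to say that there were none. The 4 claudins outside the set had differences over both sexes of -0.65 for Cldn2, whose standard error was the widest, -0.19 for Cldn12, 0.01 for Cldn19 and -0.22 for Cldn23.

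**Figure D3:**
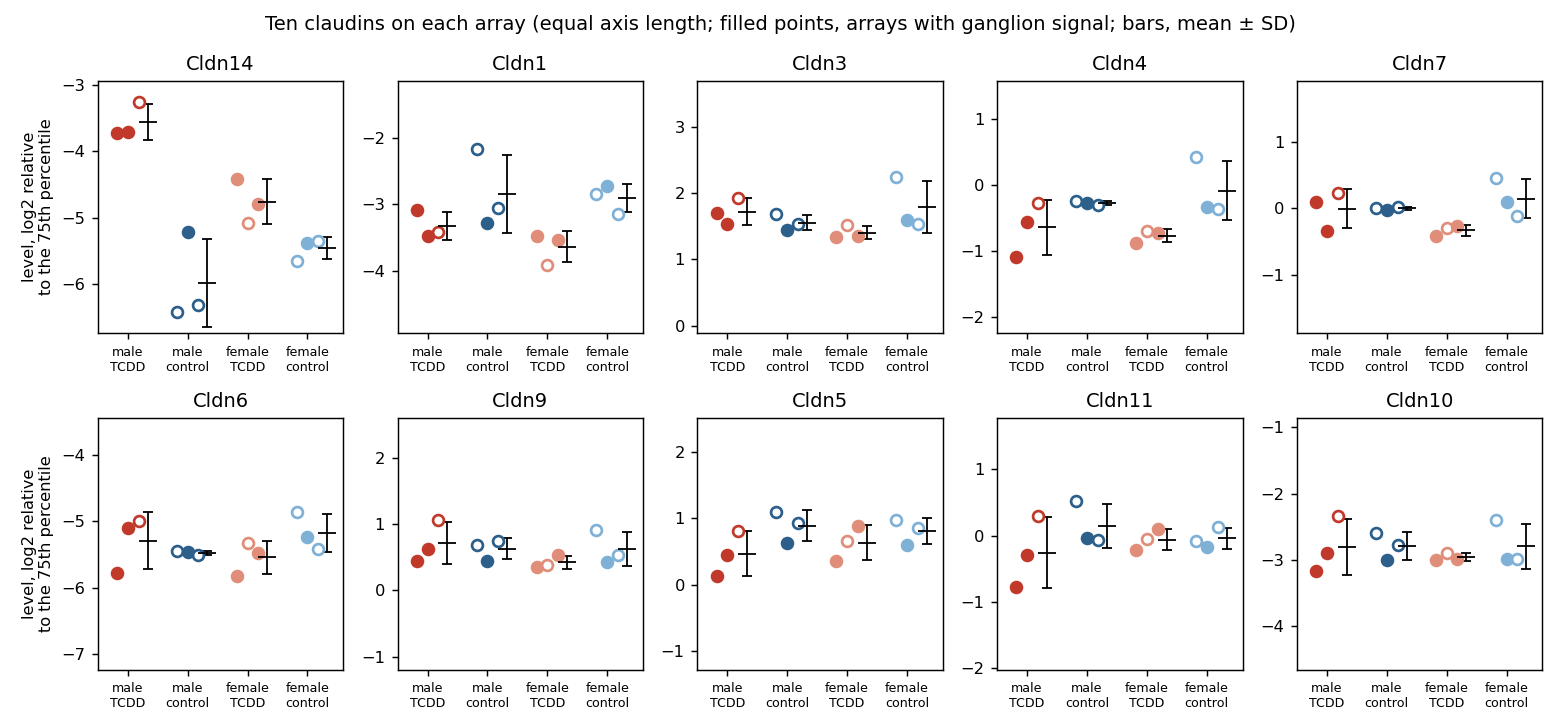
Level of each of 10 claudins on the 12 arrays, as log2 relative to the 75th percentile of the array, with panels of equal axis length, the mean and SD of 3 arrays per group, and filled points for arrays with ganglion signal. Cldn14 spans 3.18 units, and for Cldn1, Cldn3, Cldn4 and Cldn7 the TCDD females lie below the control females.

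Sex was a contrast that the choice of genes did not use. Male minus female differences of the 10 claudins, averaged over exposed and control arrays, lay between -0.05 and 0.34, and none was called (limma, adjusted p 0.996 to 0.999, n = 6 each), where 0.0206% of all genes were called and 686 had an unadjusted p below 0.05. The highest was Cldn14 at 0.34 (standard error 0.22, interval -0.16 to 0.84). For that gene the mean hides opposite orders: TCDD males at -3.56 lay above TCDD females at -4.76, and control males at -5.98 lay below control females at -5.46. The next were Cldn1 at 0.19 (interval -0.23 to 0.61) and Cldn9 at 0.15 (interval -0.12 to 0.41). With slide as a fixed block the order was different, with Cldn11 at 0.68 above Cldn14 at 0.61 and Cldn5 at 0.33. Cldn1 was then at -0.29, Cldn7 at -0.27 and Cldn3 at -0.19, and again none was called. Only slide 2 held both sexes, as TCDD males 2 and 3 and control females 1 and 2, so sex went with exposure there. The blocked values therefore depend on the exposure differences within slides 1 and 3, each with 1 array on one side. The unblocked comparison is in part one of slides too.

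Several claudins went up and down with marker lists of cell types, and some of them with several lists. Each claudin was correlated over the 12 arrays with the mean of 15 marker lists, 150 relations in all, and 15 Pearson correlations had an adjusted p below 0.05 in two-sided permutation tests with 100000 draws. The p-values are adjusted over the 150 relations. The draws shuffled all 12 arrays freely, although arrays share exposure, sex, slide and ganglion signal. The p-values may therefore be too small. Cldn4 followed pituitary progenitor markers with r = 0.95 (p = 2e-05, adjusted p = 0.003) and rho = 0.90 (p = 0.00017, adjusted p = 0.0127), with r = 0.87 without the 2 most extreme arrays. Within exposed arrays r was 0.96 and within control arrays 0.96, and it was 0.94 among arrays with ganglion signal and 0.94 among the others. Cldn4 also followed pituitary hormone cell markers, led by Pomc and Cga (r = 0.90, p = 0.00021, adjusted p = 0.0063, and rho = 0.96, p = 2e-05, adjusted p = 0.003), with r = 0.94 in exposed and 0.64 in control arrays.

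Cldn3 followed the simple epithelium list with r = 0.92 (p = 6e-05, adjusted p = 0.0045) and rho = 0.88 (p = 0.00047, adjusted p = 0.0235). Without the 2 most extreme arrays r was 0.76, and within exposed arrays and control arrays it was 0.96 and 0.91. Cldn7 followed the same list with r = 0.87 (p = 0.00032, adjusted p = 0.008) and rho = 0.79 (p = 0.00313, adjusted p = 0.0671), with 0.68 without the 2 most extreme arrays. The progenitor and epithelium lists share Cdh1 and Epcam, and no list contains a claudin.

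Cldn11 followed the list of meninges and perineurium, whose brightest members were Ptgds and Gjb2, with r = 0.90 (p = 0.00011, adjusted p = 0.0055) and rho = 0.80 (p = 0.00267, adjusted p = 0.0671). The value was 0.72 without the 2 most extreme arrays, 0.93 within exposed and 0.82 within control arrays. TCDD male 1 was lowest on both scales, with a list mean of 1.07 where the other arrays lay at 1.67 or above. Cldn10 followed the progenitor list with r = 0.85 (p = 0.00018, adjusted p = 0.0063) and rho = 0.80 (p = 0.00249, adjusted p = 0.0671), and 0.77 without the 2 most extreme arrays. The other 9 of the 15 relations, of both signs, involved Cldn5, Cldn9, Cldn10 and Cldn11, and for none of those was the Spearman correlation below an adjusted p of 0.05. Cldn5 with the endothelial list was not among the 15 (r = 0.61, adjusted p = 0.142). Its highest positive correlation was with the progenitor list (r = 0.82, adjusted p = 0.018), and r was 0.78 with hormone cells and 0.77 with meninges. Cldn9 had r = 0.80 with simple epithelium and 0.76 with progenitors, and Cldn10 had 0.79 with simple epithelium. The relations of these claudins were thus not confined to a single cell type. Each slide holds 4 arrays, too few for a value within slides.

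The Pearson correlations of Cldn14 with the 15 lists were smaller, at most 0.63 in size. They are given without a p, since its exposure difference was known. The list with that value was skeletal muscle, where r was -0.63 and rho -0.65, with -0.59 within exposed and -0.20 within control arrays. Pituitary hormone cells were close, with r = -0.61 and rho = -0.67, and r was 0.11 within exposed and -0.56 within control arrays. With simple epithelium r was -0.21. Against the ganglion marker mean Cldn14 had r = 0.70 among arrays with ganglion signal and -0.14 among the others. It was 0.14 within exposed and 0.58 within control arrays. Both sets of arrays mix exposed and control ones, and the part of ganglion tissue was not tested.

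**Figure D4:**
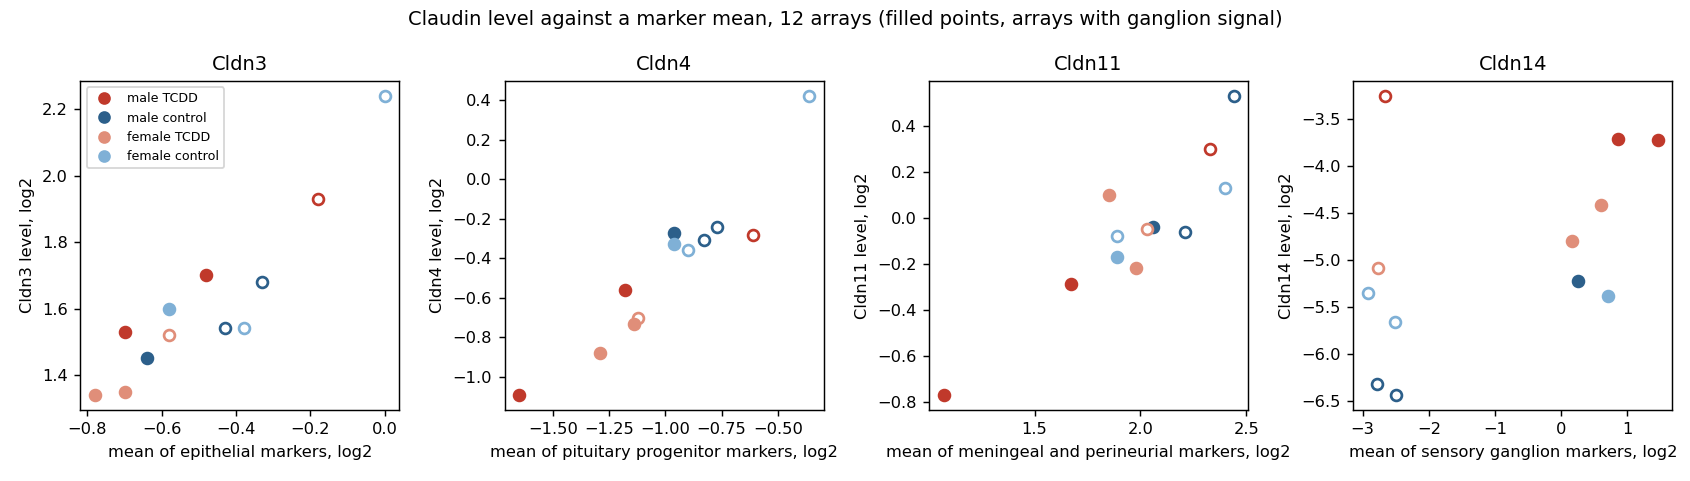
Level of Cldn3, Cldn4, Cldn11 and Cldn14 on each of the 12 arrays against the mean log2 level of a marker list, with colours for the groups and filled points for arrays with ganglion signal. Cldn3, Cldn4 and Cldn11 climb with simple epithelium (r = 0.92), progenitors (r = 0.95) and meninges (r = 0.90), while for Cldn14 the exposed points lie above the control points on both sides of the gap in the ganglion mean.

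Other parts of the tight junction were read from a list of partners. Of 36 listed partners, among them the scaffold proteins of the junction, its adhesion molecules and the polarity complex, 32 were measured. None was called in any comparison, where 0.0206% of genes were called over both sexes. Over both sexes 9 of 32 were above 0, with a median of -0.14 and a range from -0.66 to 0.45, where all genes had a median of -0.0229. The highest were the polarity kinase Prkcz at 0.45 (standard error 0.39) and its partner Pard6a at 0.32 (standard error 0.22). The lowest were cingulin, Cgn, a junction plaque protein, at -0.66 (standard error 0.23) and Marveld3, a membrane protein of the junction, at -0.56 (standard error 0.21). The difference of Cldn14 lay above all 32, which is a description only, since that difference chose the gene.

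Over the 12 arrays the gene whose level was most like that of Cldn14, among 13652 named genes with a value on every array, was Rxrg, the retinoid X receptor gamma (r = 0.92). Its differences were 0.72 in males and 0.27 in females. Next were Lemd2, of the inner nuclear membrane (r = 0.91), Pikfyve, a phosphoinositide kinase (r = 0.88), and Cfl1, cofilin, and Fmn1, a formin, both of which act on actin (r = 0.84 each). Within groups, after each group mean was taken out, these values were 0.48, 0.71, 0.49, 0.40 and 0.54. The most opposite was Gpihbp1, the capillary anchor of lipoprotein lipase (r = -0.91), with differences of -1.45 in males and -0.61 in females, followed by Rpn1 (r = -0.88) and Ammecr1l (r = -0.86). The arrays share exposure, sex and tissue makeup, so these are descriptions of likeness. Among the claudins the correlation with Cldn14 lay between -0.66, for Cldn5, and 0.04, for Cldn6 and Cldn9.

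The genes beside Cldn14 on chromosome 11 all had smaller differences than its own, the difference by which Cldn14 was chosen. The 3 measured protein-coding genes on each side, a set chosen by position, differed over both sexes by -0.02 for Ifitm7, -0.12 for Morc3 and -0.18 for Chaf1b on one side. On the other side the values were -0.06 for Sim2, which was well above background on 5 arrays only, -0.29 for Ripply3 and -0.11 for Pigp. Standard errors ran from 0.08 for Pigp to 0.33 for Sim2, against 1.56 and 0.22 for the difference and standard error of Cldn14.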

How the data were processed

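The arrays measured RNA of fetal pituitaries by single-colour hybridisation (Cy3), per the labels' protocols. The deposited scanner files hold spot intensity on a linear scale from Agilent Feature Extraction, version 10.7.1.1 per the file headers and 9.5.1.1 per the submitters' processing notes, with probe positions on rn4. A value table deposited by the authors, likewise of intensity, served as an alternative. Its scaling is inferred from the values as quantile normalization and is not stated in the sources used here.

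Neither control spots nor outlier spots entered. Processed intensities were put on the log2 scale, lowered by the array's 75th percentile and averaged over a probe's spots. A probe was kept if well above background on at least 3 of 12 arrays with at least 10 values, which kept 22431 of 30367 probes, and the brightest probe stood for a gene. Names were updated through RefSeq accessions for 18006 probes and symbols for 2654, and 9707 kept the name in the files. Between 75.1% and 78.4% of spots per array were well above background and 0 were saturated. Each group has 3 arrays, which limits the precision.

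Groups come from the labels. limma 3.58.1 in R 4.3.3 was fitted to all 12 arrays with 4 group means and an intensity trend, with Benjamini-Hochberg adjustment over 19382 genes, called at an adjusted p below 0.05. The fit was also run on simulated data with independent noise for each gene, without slide or ganglion structure. That run could not test the fit against those features, and nothing is read from it. The alternatives changed background correction, scaling, filter, probe rule, variance model, weights, slide, replicate number and arrays. The titles number the replicates 1 to 3 in each group, and among 18 pairs of arrays with the same number the correlation of deviations from the group means ran from -0.70 to 0.75, so the numbers were not taken as pairs. The genes named are the 10 claudins, other measured claudins, the 5 genes most like and 3 most unlike Cldn14 over the arrays, Ahrr and Cyp1a1, and from each list the 2 highest and 2 lowest junction partners or the 2 brightest markers. The neighbours of Cldn14 were added afterwards, by position. The members and lists were chosen with earlier results of these data known. Values are given for the marker lists set beside a claudin result, and the other lists are not reported here.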

Additional observations from a re-analysis of the deposited data

How the results depend on the processing

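The difference of Cldn14 was above 0 in all 29 alternatives in males (0.92 to 3.12), all 29 in females (0.23 to 0.86) and all 27 over both sexes (0.57 to 1.77). In each it lay above the highest value of any of the other 9 claudins, as a description, since that difference chose the gene. Normexp gave the lowest values, 0.92, 0.23 and 0.57, and the male value without the arrays with ganglion signal was 3.12. Leaving out 1 array at a time gave 2.20 to 2.81 in males, 0.53 to 0.86 in females and 1.45 to 1.75 over both sexes. The median of the other 9 over both sexes stayed below 0 in all 27 (-0.30 to -0.02). In males the single values were less stable: within slide 1, where TCDD male 1 is the exposed array, and also with slide blocked, Cldn6, Cldn9 and Cldn10 had -0.30, -0.19 and -0.38, against 0.49, 0.34 and 0.35 without the arrays with ganglion signal. Counts of called genes moved more. In males 2 were called, with 1 by normexp, by the filter requiring all 12 arrays and in males alone, 4 without a variance trend and with the ganglion mean as a covariate, 26 with slide as a fixed block, 276 within slide 1, 8564 with array weights and 0 without the arrays with ganglion signal, which leaves 1 exposed and 2 control arrays a sex (932 at an unadjusted p below 0.05). In females 2 were called, with 1 by normexp and by the stricter filter, and 0 within slide 3 (531 unadjusted) and without the arrays with ganglion signal (488 unadjusted). Over both sexes 4 were called, with 2209 by array weights, 15 with slide as a fixed block, 2 with the replicate number as a block, 0 without the arrays with ganglion signal (543 unadjusted) and 11 with the covariate. For sex 4 were called, with 1 by normexp, 2 without a trend, 7 by weights, 0 with slide as a fixed block (1394 unadjusted), 2 with slide as a random block, 2 with the replicate block, 0 without the arrays with ganglion signal (668 unadjusted) and 7 with the covariate. Leaving out 1 array gave 2 to 3 genes in males, 2 to 3 in females, 4 to 9 over both sexes and 2 to 4 for sex. The 9 came without TCDD male 1, and 7 came without TCDD male 3 or control female 1. The replicate block cannot move a group difference here, since each number occurs once in a group. Of the 10 claudins, 0 were called for exposure, but array weights called 6 in males, where 8564 of 19382 genes were called, and 4 over both sexes, where 2209 were. Of the 12 fits that left out 1 array, only that without control male 2 called any of the 10. It called Cldn14, with 3 of 19382 genes called in males and 5 over both sexes. Control male 2 held the highest control level of Cldn14, -5.22. Nothing is read from this call, since the exposure contrast chose the gene. No claudin was called for sex in any of 27 alternatives. The cause of these moves was not tested.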
